A study of Oryza sativa Japonica Group with 32 samples.

Results

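Endosperm, the tissue that stores starch and protein in the rice grain, was compared with 6 non-seed tissues in gene expression and in the m6A content of single mRNA sites. Of the 16 untreated (input) libraries of the series, the 2 endosperm libraries were set against the 12 libraries of the flag leaf, panicle, 2 ages of seedling (8 days and 2 weeks) and plumules grown in darkness or in light, with the mean of each tissue as the unit. Of 205691 listed m6A sites, the 96811 with a read depth of at least 20 in all 7 tissues were compared (47.1%). Embryo, the other seed tissue of the series, belonged to neither group.

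All plants were japonica rice (Oryza sativa) of the cultivar Nipponbare, and no group carried a transgene or a mutation. Endosperm and flag leaf were taken 10 days after anthesis, panicles at heading, and the plumules shortly after germination in darkness or in light. Each of the 8 tissues of the series gave 2 biological replicates of polyadenylated RNA, and each replicate gave a treated m6A-SAC-seq library and an untreated input, which makes 32 libraries. Expression came from the inputs. The m6A table held 1 fraction, 1 depth and 1 detection flag per site and tissue with both replicates combined, so the m6A values had no replicate error. A tissue sample holds several cell types, and in such bulk RNA fewer cells of a type and less RNA per cell cannot be told apart.

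The endosperm of a cereal grain is filled after fertilization with sucrose that arrives from the leaves, is cleaved, and is turned into ADP-glucose and then into starch inside amyloplasts. Its cells also make large amounts of storage protein (glutelins, prolamins, globulins and albumins) on the rough endoplasmic reticulum, from genes switched on by a small set of seed transcription factors. N6-methyladenosine, or m6A, is a methyl mark on adenosines of mRNA that lies most often near stop codons and in 3′ UTRs, and it is known to bear on mRNA stability and translation. In m6A-SAC-seq an enzyme adds an allyl group to m6A, the modified base is misread by reverse transcriptase, and spike-in probes of known m6A content turn the misreading rate into a fraction between 0 (no transcript methylated) and 1 (all methylated).

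The input libraries were of like size, with 12856679 to 15516038 reads recovered from the TPM values (TPM is a transcript level scaled for gene length and to a fixed total per library). Storage protein genes alone took 32.2% and 31.8% of all TPM in the endosperm libraries, against at most 0.00728% in any of the 12 non-seed libraries. The 10 most abundant genes took 27.9% and 27.2% in endosperm, against 6.96% to 9.08% elsewhere. TPM sum to a fixed total, so genes that take a large share lower the TPM of the others. Over the 28306 genes tested, the median difference between endosperm and the 6 tissues was -0.69 on the log2(TPM + 1) scale. How much of it came from that was not tested, and with storage protein genes left out of the scaling the median was -0.35. After scaling by median ratios, with factors of 0.598 and 0.592 for endosperm against 0.94 to 1.41 for the other libraries, that median was -0.12. Both scales are given wherever they part. The label held up on the markers of starchy endosperm, since the summed level of the storage protein genes was 321570 and 318390 TPM in endosperm, against 4.51 to 72.8 TPM in the non-seed libraries, where a panicle library was the highest.

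In the comparison of tissue means, 620 genes were higher (2.19% of those tested) and 269 were lower (0.95%) in endosperm than in the 6 non-seed tissues (limma with Benjamini-Hochberg adjustment, adjusted p under 0.05). Here 1 endosperm mean was set against 6 tissue means, so the spread was that between non-seed tissues and endosperm was assumed to vary like them. Together these were 889 genes (3.14%), and 4885 genes had an unadjusted p under 0.05. The count was 475 without the dark-grown plumule, 495 without the light-grown plumule and 483 with both plumules as 1 unit. After median-ratio scaling the counts were 938 higher (3.31%) and 105 lower (0.371%), 1043 in all (3.68%). All 620 higher genes were also called on that scale, and 101 of the 269 lower genes were. Every one of the 889 genes called on TPM had both endosperm libraries outside the range of all 12 others. Against the much smaller spread between replicate libraries, 24453 genes (86.4%) differed on TPM, 4390 upward (15.5%) and 20063 downward (70.9%). After median-ratio scaling 22736 genes (80.3%) differed in that fit, 10138 upward (35.8%) and 12598 downward (44.5%), so the downward excess on TPM depended on the scale. Both endosperm libraries lay above all 12 others for 1860 genes (6.57%) on TPM and for 4936 (17.4%) after median-ratio scaling, and below all 12 for 8981 (31.7%) on TPM and 3890 (13.7%) after scaling. A lower TPM in endosperm was therefore read as a fall only for genes that passed the test between tissue means. That test ran on TPM too, so passing it did not make a fall independent of the scaling. Whether each named fall kept its call after median-ratio scaling is given with it.

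**Figure D1:**
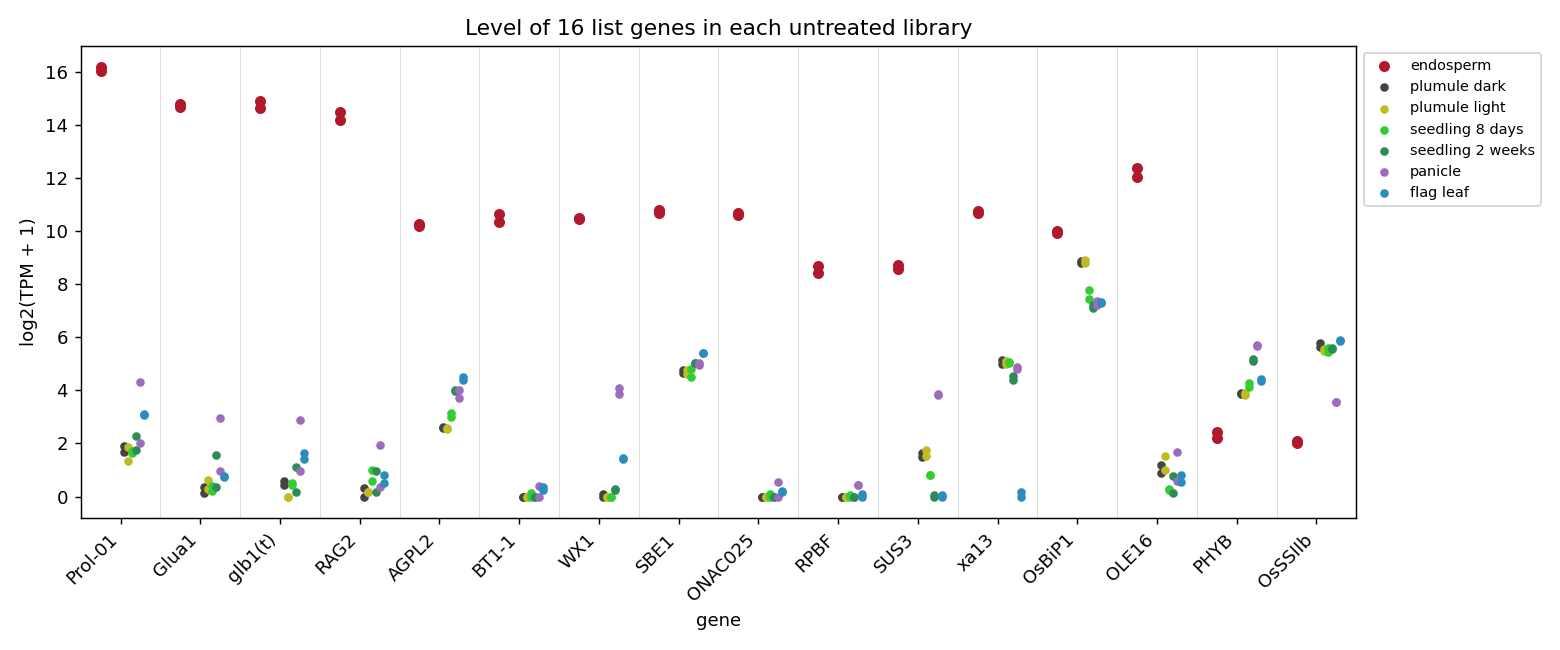
Level of 16 list genes, as log2(TPM + 1), with 1 point per untreated library. For each gene the 2 endosperm libraries stand on the left and the 12 libraries of the 6 non-seed tissues on the right; endosperm lay above all 12 for every gene shown except PHYB and OsSSIIb, where it lay below them.

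The most abundant endosperm mRNAs encoded storage proteins. Prol-01 (Os03g0766100), a 10 kDa prolamin, led with 72977 and 66931 TPM in endosperm, against 1.52 to 18.8 TPM (median 2.71) in the 12 non-seed libraries. The glutelin gene Glua1 (Os01g0762500) had 27906 and 25834 TPM in endosperm, against 0.111 to 6.79 TPM (median 0.428). The 26 kDa globulin gene glb1(t) (Os05g0499100) had 25457 and 30288 TPM in endosperm, against 0 to 6.37 TPM (median 0.46). For all 3 the groups lay far apart, and the highest non-seed value was in a panicle library. The differences on the log2(TPM + 1) scale were 13.87 ± 0.72 (SE) for Prol-01, 13.93 ± 0.70 for Glua1 and 13.92 ± 0.76 for glb1(t), with adjusted p of 8.39e-05, 7.37e-05 and 0.000101 (limma, Benjamini-Hochberg adjustment). The largest difference of any gene was that of the prolamin Prol-19, with 27467 and 24616 TPM in endosperm and at most 5.93 TPM outside it (14.05 ± 0.66).

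The other storage proteins followed the same pattern. RAG2, a seed albumin known as a rice allergen, had 18373 and 23059 TPM in endosperm, against 0 to 2.86 TPM in non-seed libraries. The related albumin gene RA16 had 22141 and 24307 TPM in endosperm, against 0 to 3.5 TPM. The glutelin GluC had 14144 and 12523 TPM in endosperm, against 0 to 2.41 TPM, and the prolamin Prol-23 had 13258 and 12023 TPM, against 0 to 2.55 TPM. Of the 37 storage protein genes in the list, 34 were tested and all 34 were called higher, with a median log2 difference of 10.87. However, 26 of those 34 passed the filter on low values only through endosperm, and 11 of the 37 were at 0 in all 12 other libraries, so this count had to be high. In each endosperm library 1 of the 37 members was at 0. Among the 34 tested, the members with the lowest levels were Prol-11 and Prol-05. Prol-11 had 2.56 and 3.16 TPM and Prol-05 had 2.43 and 3.78 TPM in endosperm, and both were at 0 in every non-seed library. Yet the m6A table gave each 1 site flagged in endosperm, with a depth of 21873 reads (Prol-11) and 23287 reads (Prol-05) in endosperm, so these TPM values are uncertain. Glutelin and prolamin genes are near-identical copies, so the split of reads between members is uncertain while their sum is less so.

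Outside the storage proteins, the 10 most abundant genes of endosperm held a single member of another kind. GLP8-2 (Os08g0189100), a germin-like protein, had 23221 and 20417 TPM in endosperm, against 0.113 to 45.1 TPM in non-seed libraries, where both panicle libraries were the highest. Its difference was 12.10 ± 1.72 on the log2 scale (limma, Benjamini-Hochberg adjusted p = 0.0128). OsEnS-96 (Os07g0213800), which was among the 10 largest rises, had 9739 and 13876 TPM in endosperm, against 0 to 1.19 TPM. In all, 224 genes were called higher, lay above all 12 libraries and averaged at least 50 TPM in endosperm, against 65 genes of the mirror kind with at least 50 TPM over the 6 tissues.

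Of 25 genes of starch synthesis, 9 were called higher in endosperm and none lower, beside 2.19% and 0.95% of all genes tested. Their median log2 difference was 2.99 (3.86 after median-ratio scaling), beside -0.69 (-0.12) over all genes tested. Their summed level was 11120 and 11041 TPM in endosperm, against 437 to 741 TPM in non-seed libraries. The first step was among the clearest. AGPL2 (Os01g0633100), the large subunit of the ADP-glucose pyrophosphorylase of endosperm cytosol, had 1228 and 1159 TPM in endosperm, against 4.8 to 21.5 TPM (median 9.87) elsewhere. OsAGPS2a (Os08g0345800), a small subunit of ADP-glucose pyrophosphorylase, had 1543 and 1451 TPM in endosperm, against 60.5 to 115 TPM (median 80.0). BT1-1 (Os02g0202400), the transporter that brings ADP-glucose into the amyloplast, had 1290.5 and 1578 TPM in endosperm, against 0 to 0.321 TPM (median 0). For all 3 genes the lowest endosperm value exceeded the highest of the 12 others, with log2 differences of 6.80 ± 0.78, 4.20 ± 0.45 and 10.38 ± 0.41.

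The enzymes that extend, branch and trim the glucan chains came next. WX1 (Os06g0133000), the granule-bound starch synthase that makes amylose, had 1399 and 1434 TPM in endosperm, against 0 to 16.1 TPM (median 0.134), with the panicle highest. SBE1 (Os06g0726400), a starch branching enzyme, had 1788 and 1649 TPM in endosperm, against 21.7 to 41.9 TPM (median 28.2). Both were called, WX1 with a difference of 9.51 ± 1.5 (limma, Benjamini-Hochberg adjusted p = 0.0206) and SBE1 with 5.84 ± 0.41 (adjusted p = 0.00031). The debranching enzyme pullulanase, OsPUL, had 840.1 and 823 TPM in endosperm, against 0.876 to 7.17 TPM. The soluble starch synthase ALK (SSIIa) had 352 and 403 TPM in endosperm, against 0 to 6.73 TPM, and the starch phosphorylase Pho1 had 379 and 350.0 TPM, against 11 to 26.9 TPM. These were called too, as was the starch synthase SSI, with 193 and 182 TPM in endosperm, against 5.55 to 28.3 TPM (adjusted p = 0.0477 by limma with Benjamini-Hochberg adjustment, the closest to the threshold). The call of WX1 was lost without any 1 of 3 tissues (adjusted p up to 0.0564 by the same method) and that of SSI without any 1 of 4 (up to 0.111).

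Some starch genes lay above all 12 libraries without passing the test. SBE3, the branching enzyme IIb of endosperm, had 926 and 878 TPM in endosperm, against 1.49 to 46.0 TPM, with an adjusted p of 0.0573 on TPM and of 0.0263 after median-ratio scaling, and of 0.00948 on TPM without panicle (limma, Benjamini-Hochberg adjustment). OsPHS8, the isoamylase that trims amylopectin, had 532 and 520.2 TPM in endosperm, against 0.735 to 29.3 TPM (adjusted p = 0.139, the same method). In all 14 of the 25 starch genes lay above all 12 libraries, beside 6.57% of all genes. OsSSIIb, a starch synthase known from leaves, was the only one below them, with 3.31 and 3.09 TPM in endosperm, against 10.7 to 59.1 TPM. The leaf counterpart of WX1, GBSSII, overlapped with 16.1 and 13.8 TPM in endosperm and 9.17 to 205 TPM elsewhere. Neither of these leaf forms was called, and their log2 differences were -3.23 ± 0.84 and -1.05 ± 1.37, although without panicle OsSSIIb had an adjusted p of 0.00258 (limma, Benjamini-Hochberg adjustment).

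Of 12 genes of sugar supply 1 was called higher and none lower, beside 2.19% and 0.95% of all genes tested. Their median log2 difference was 0.28 (1.15 after median-ratio scaling). That gene was SUS3, a sucrose synthase, which cleaves sucrose for starch synthesis; it had 419 and 378 TPM in endosperm, against 0 to 13.4 TPM, with the panicle highest (7.32 ± 1.36, limma with Benjamini-Hochberg adjusted p = 0.0392, and 0.0692 to 0.0937 without any 1 of 4 tissues). SUS4, of the same family, also lay above all 12 libraries, with 306 and 307 TPM in endosperm, against 6.36 to 191 TPM, but was not called. SUS1 had 39.4 and 33.1 TPM in endosperm, inside the non-seed range of 5.80 to 2495 TPM, where flag leaf was the lowest. The sugar exporter xa13 (SWEET11) had 1700.4 and 1648 TPM in endosperm, against 0 to 34.2 TPM, yet it was not called (6.62 ± 1.83, limma with Benjamini-Hochberg adjusted p = 0.124). Flag leaf stood near 0 for this gene and apart from the other 5 tissues, and without flag leaf the adjusted p was 0.000856. A second exporter, OsSWEET15, had 111 and 115 TPM in endosperm, against 0 to 32.4 TPM, and the sucrose transporter OsSUT1 had 129 and 111 TPM, overlapping with 19.7 to 117 TPM. The summed level of the 12 genes overlapped as well, with 2999 and 2862 TPM in endosperm and 294 to 2919 TPM elsewhere.

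Regulators of grain filling were called higher in 10 of 16 cases and lower in none, beside 2.19% and 0.95% of all genes tested, with a median log2 difference of 4.90 (5.71 after median-ratio scaling), although 9 of the 16 passed the filter on low values only through endosperm. ONAC025 (Os11g0512000), a seed NAC factor, had 1645 and 1531 TPM in endosperm, against 0 to 0.471 TPM. Its relatives ONAC026, with 447 and 428 TPM in endosperm, and ONAC020, with 360.3 and 341 TPM, did not pass 0.264 TPM in any non-seed library. RPBF, a DOF factor that binds the prolamin box of storage protein promoters, had 344 and 413 TPM in endosperm, against 0 to 0.347 TPM, and its partner RISBZ1, a bZIP factor, had 59.6 and 58.9 TPM, against 0 to 1.05 TPM. Thus the level of these factors spanned a wide range within endosperm while all stood close to 0 outside it. The nuclear factor Y subunits HAP3K (NF-YB1) and OsEnS-133 (NF-YC12) had 515 and 465 TPM and 480 and 460 TPM in endosperm, against at most 0.864 TPM and 0.103 TPM.

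Smaller regulators had the same shape. FIE1, a Polycomb group gene of endosperm, had 9.42 and 8.94 TPM in endosperm, against 0 to 0.061 TPM, and the auxin synthesis gene OsYUCCA11 had 12.8 and 14.4 TPM, with 0 in all 12 other libraries. The panicle set other regulators apart. MADS29, a MADS-box factor of seed development, had 46.1 and 44.3 TPM in endosperm, against 0 to 4.51 TPM, with reads outside endosperm in the panicle alone; its call was lost without any 1 of 4 other tissues. TAR1, an auxin synthesis gene, lay only just above the panicle, with 43.0 and 48.8 TPM in endosperm, against 0 to 42.9 TPM, and MFO1 (MADS6) lay within the range, with 15.9 and 13.9 TPM in endosperm and 0 to 196 TPM elsewhere. Neither was called with all 6 tissues, and without panicle both were (limma, Benjamini-Hochberg adjusted p of 0.000161 for TAR1 and 0.000713 for MFO1). Panicle had the highest level of both genes among the 6 tissues, so these calls set endosperm against the remaining tissues only. RSR1, a repressor of starch synthesis genes, ran the other way, with 10.1 and 9.34 TPM in endosperm, against 37.6 to 294 TPM (-4.01 ± 1.03, limma with Benjamini-Hochberg adjusted p = 0.106, not called, and 0.00858 without panicle).

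Protein folding and sorting genes of the secretory route were not called in any of 6 cases on TPM, beside 2.19% called higher over all genes tested. Yet 5 lay above all 12 libraries (beside 6.57% of all genes) and 6 did after median-ratio scaling (beside 17.4%). The median log2 difference was 1.26 (2.15 after median-ratio scaling). The chaperone OsBiP1 had 1028 and 976 TPM in endosperm, against 137 to 476 TPM (2.13 ± 0.81). The disulfide isomerase ESP2 had 693 and 643 TPM in endosperm, against 125 to 602 TPM. GLUP3, a vacuolar enzyme that cleaves proglutelin, had 144 and 132 TPM in endosperm, against 23.9 to 57.3 TPM, with an adjusted p of 0.150 on TPM and of 0.0177 after median-ratio scaling (limma, Benjamini-Hochberg adjustment). Both plumules were the highest of the non-seed tissues for OsBiP1. Summed, the list reached 2103 and 1989 TPM in endosperm, against 388 to 1271 TPM in the non-seed libraries.

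No gene of the 3 photosynthesis lists passed the test, beside 2.19% called higher and 0.95% called lower over all genes tested. At so low a share, lists of this size could hold no called gene. Other genes drawn up for these lists were left out, since the deposited table does not name them. The differences were negative on TPM for 7 of 8, 12 of 12 and 8 of 8 genes of the lists below, beside 79.2% of all genes tested. The median log2 difference was -1.63 for 8 light harvesting genes, -2.12 for 12 genes of the photosystems and electron transport and -2.87 for 8 Calvin cycle genes, and after median-ratio scaling these were -0.74, -1.23 and -1.98. On TPM 3, 6 and 6 of them lay below all 12 libraries, beside 31.7% of all genes, and after median-ratio scaling 0, 0 and 3 did, beside 13.7%. Both plumules were among the lowest of the non-seed tissues, and in all 3 lists the light-grown plumule had the lowest sum. The photosystem II protein PsbO had 297 and 338 TPM in endosperm, against 392 to 4785 TPM. CP24, an antenna protein, had 152 and 173 TPM in endosperm, against 252 to 2830 TPM, and the Rubisco small subunit gene RbcS5 had 83.8 and 81.9 TPM, against 366 to 4344 TPM. The summed light harvesting genes still reached 3302 and 4018 TPM in endosperm, which overlapped the non-seed range of 3586 to 56722 TPM. Whether green pericarp was part of the endosperm samples was not tested.

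The 6 photoreceptor genes showed a similar shape at lower levels. Phytochrome PHYB had 4.40 and 3.61 TPM in endosperm, against 13.4 to 51.7 TPM, and PHYC had 4.0 and 4.36 TPM, against 15.9 to 54.6 TPM. The cryptochrome gene OsCRY1b had 0.773 and 0.796 TPM in endosperm, against 6.0 to 57.1 TPM. These genes, with OsCRY1a and OSCRY2, lay below all 12 libraries on both scales (beside 31.7% of all genes on TPM and 13.7% after median-ratio scaling), whereas PHYA overlapped with 15.4 and 13.4 TPM in endosperm and 9.05 to 71.8 TPM elsewhere. None was called, beside 0.95% of all genes tested called lower, and the list's median log2 difference was -2.36 (-1.57 after median-ratio scaling).

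Of 7 markers of embryo 3 were called higher, beside 2.19% of all genes tested, namely the oleosins OLE16 and OLE18, which coat oil bodies, and the late embryogenesis protein Em. OLE16 had 4164 and 5298 TPM and OLE18 had 2210 and 2198 TPM in endosperm, against at most 2.23 TPM and 4.43 TPM in non-seed libraries. Em had 148 and 143 TPM in endosperm, against 0 to 7.52 TPM, and its call was lost without any 1 of 4 tissues. The 2 embryo libraries themselves held 15829 and 14091 TPM of OLE16 and 7256 and 6868 TPM of Em. The axis marker OSH1, a KNOX gene with 14 and 13.7 TPM in embryo, was near 0 in endosperm at 0.0633 and 0.0937 TPM, against 0 to 45.6 TPM in the non-seed libraries. The summed embryo list was 6816 and 8000 TPM in endosperm, against 5.13 to 65.9 TPM, and 6 of 7 members lay above all 12 libraries, beside 6.57% of all genes. The aleurone, the outer layer of the endosperm, also makes oleosins, and the part of aleurone or embryo RNA in these values was not tested. Meristem genes (3) and anther genes (4) had no member called, beside 2.19% higher and 0.95% lower over all genes tested.

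The 10 largest falls among genes with at least 50 TPM over the 6 tissues followed. OSINV2 (Os04g0535600), a vacuolar invertase that cleaves sucrose, had 0.071 and 0.245 TPM in endosperm, against 27.7 to 104 TPM (median 75.9), which gave -5.89 ± 0.66 (limma, Benjamini-Hochberg adjusted p = 0.00404). OsLTP1.12, a lipid transfer protein, had 14.4 and 15.1 TPM in endosperm, against 410 to 863 TPM (-5.12 ± 0.51), and OsCER1, of wax alkane synthesis, had 0.481 and 0.538 TPM, against 31.3 to 96.6 TPM (-5.12 ± 0.62). The largest fall was that of Os01g0971000, with 1.35 and 1.18 TPM in endosperm, against 79.8 to 313 TPM (-6.21 ± 0.75), and AO (Os06g0567900) followed with 0.29 and 0.251 TPM, against 22.4 to 140.0 TPM. All of these kept their call after median-ratio scaling, and so did the peroxidase gene prx116 and the calmodulin-like gene OsCML29, which had no read in either endosperm library and 13.5 to 114 TPM elsewhere, although these 2 calls were lost without any 1 of 4 or 5 tissues. By contrast the annexin OsANN3, the ERF factor OsERF#069 and the epimerase OsUGlcAE4 were called on TPM and had adjusted p of 0.0507, 0.0738 and 0.0753 on that scale (limma, Benjamini-Hochberg adjustment), and on TPM the calls of OsERF#069 and OsUGlcAE4 were lost without any 1 of 5 or 4 tissues.

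**Figure D2:**
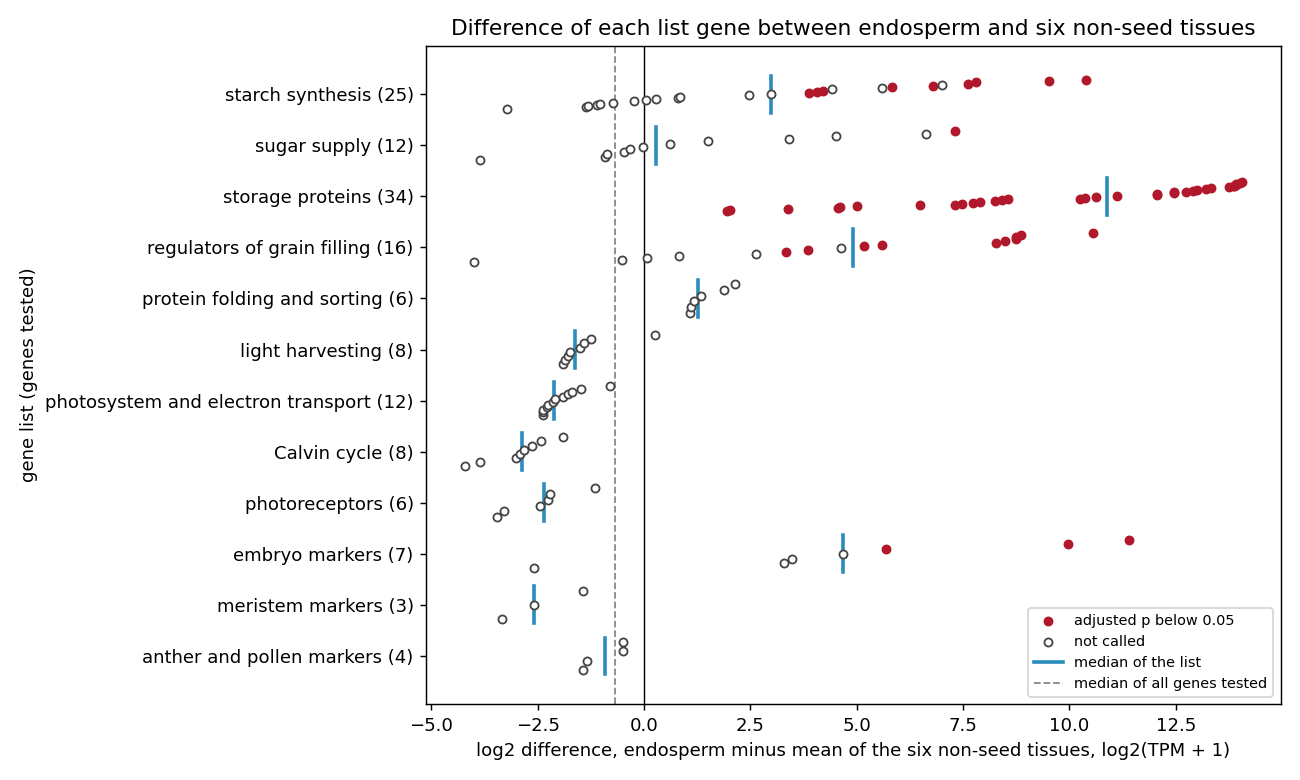
Difference between endosperm and the mean of the 6 non-seed tissues on the log2(TPM + 1) scale, with 1 point per tested gene of each list; filled points passed the test, blue bars are list medians, and the dashed line is the median of all genes tested (-0.69). Storage proteins had a median of 10.87 and all 34 were called, but 26 of them passed the filter on low values only through endosperm. The medians of the photosynthesis and photoreceptor lists lay left of the dashed line and these lists held no called gene, beside 0.95% called lower over all genes tested.

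The m6A comparison covered 96811 sites in 11697 genes. Endosperm had a mean fraction of 0.237, within the non-seed range of 0.228 to 0.251 (mean 0.241 ± 0.00981, SD over 6 tissues). The difference was -0.00403 (exact permutation test, two-sided, p = 0.857, where the smallest p that 1 tissue against 6 allows is 0.143). Most sites differed little, with 66.8% within 0.1 of the mean of the 6 tissues. Endosperm lay above all 6 tissues at 14623 sites (15.1%) and below all 6 at 14866 sites (15.4%). By at least 0.1 it lay above at 4501 sites (4.65%) and below at 2592 (2.68%). The seedling at 2 weeks, the tissue closest to endosperm in depth (median 73 reads, against 76 in endosperm), stood above the rest by as much at 5433 sites and below at 2152. Across sites, Pearson's r of endosperm with the 6 tissues was 0.623 to 0.655, and among the 6 it was 0.643 to 0.737; the points share transcripts and base composition, and depth was lower in endosperm than in 5 of the 6.

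By region, endosperm had the lowest mean of the 7 tissues in coding sequence, at 0.156 against 0.158 to 0.174, and in 5′ UTRs, at 0.199 against 0.209 to 0.236. In 3′ UTRs it stood among the others, at 0.334 against 0.311 to 0.352. The step between 3′ UTR and coding sequence, 0.178 in endosperm, was within the range of the others too (0.153 to 0.189). By motif, the 5 bases centred on the methylated adenosine were classed as RAC (with R for A or G), GAT and other. Endosperm was at 0.252 for RAC, against 0.237 to 0.267, and at 0.137 for GAT, against 0.130 to 0.150. For other motifs it was the lowest of 7, at 0.281 against 0.282 to 0.316. For coding sequence, 5′ UTR and other motifs the exact permutation p was 0.286 (0.667 after Benjamini-Hochberg adjustment over the 7 regions and motifs), so none of these ranks could be told from the spread between tissues.

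**Figure D3:**
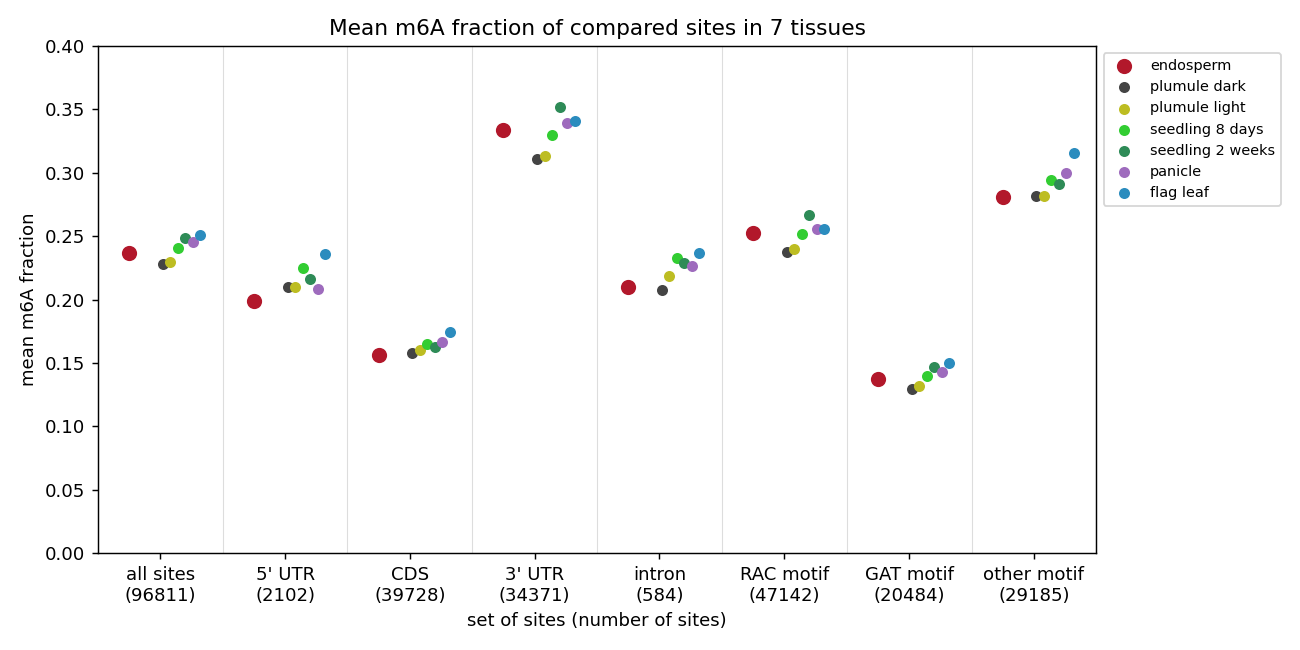
Mean m6A fraction (0 to 1) of the compared sites in 7 tissues, for all sites and by transcript region and motif, with 1 point per tissue and the number of sites in brackets. Endosperm, on the left of each column, was the lowest of 7 in coding sequence (0.156), 5′ UTRs (0.199) and other motifs (0.281) and within the range of the other tissues elsewhere.

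Sites that parted most from the non-seed tissues were mostly of other motifs. Of the 482 sites at least 0.5 above all 6 tissues, 381 were of other motifs, 101 were RAC and 0 were GAT, while other motifs made up 30.1% of compared sites and RAC 48.7%. Below all 6 by as much lay 130 sites, of which 108 were of other motifs and 22 RAC. The 16 sites with the largest gaps and depth of at least 50 in every tissue were all of other motifs, and the 5 bases of 8 of them are shown because none holds RAC or GAT at its centre; they differ from one another, and capitals mark the methylated adenosine.
Os06g0712300, 3′ UTR: atAta
OsPOP16, CDS: atAtg
C3H12, CDS: ccAgt
OsDG2, CDS: ctAgt
OsDR11, intron: atAcc
OsEXO70A1, 5′ UTR: ccAga
OsWNK5, CDS: caAgc
MOS3/SAR3, 3′ UTR: atAct

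The first 4 of these sites lay at 1.0 in endosperm and at 0 in all 6 non-seed tissues, with 52 to 177 reads in endosperm over the 8 most raised sites. These are calibrated values, and in the paper's spike-in probes the mutation ratio differed by motif, with GAC well above AAC. How exact a fraction of 0 or 1 is at other motifs was not tested, so these gaps need not be complete changes in methylation. The site of OsPOP16 (chr7:25011482, plus strand of IRGSP-1.0) was covered by 100 reads in endosperm, against 65 to 123 in the others, and that of C3H12 (chr1:40007625, minus strand), in a gene for a zinc finger protein, by 135 against 72 to 206. All 8 sites above the non-seed range were at 1.0 in endosperm, and 6 of them were at 0 in every other tissue. In the opposite direction, the intronic site of OsDR11 (chr12:16197531, minus strand) was at 0 in endosperm and at 1.0 in all 6 others, and the site of OsEXO70A1 (chr4:35028001, minus strand), in a gene of the exocyst complex, was at 0 against 0.979 to 1.0, although it carried the deposited detection flag in only 1 of the 6. OsWNK5, a kinase gene, kept a fraction of 0.247 in endosperm, against 1.0 in all 6 (chr7:23679408, plus strand). A fraction of exactly 0 was more frequent in endosperm, at 13.6% of sites, than in the other tissues, at 6.82% to 13.0%, and endosperm and the 2-week seedling, the tissues with the lowest depth, had the highest shares.

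Large gaps at RAC sites were fewer, and the examples below were chosen after their values were seen. In OsUXS2, which makes UDP-xylose for cell walls, a 5′ UTR site (aaAcc, chr1:11910908, minus strand) was at 1.0 in endosperm, against 0 to 0.208, with 58 reads. OsDG2 held a second raised site (gaAcc, chr2:23746916, plus strand), at 0.881 in endosperm, against 0.1 to 0.301 (its call was lost without any 1 of 5 tissues). In SNRK1A, a kinase of energy and sugar signalling, a 3′ UTR site (aaAcc, chr5:26347321, minus strand) was at 0 in endosperm with 54 reads, against 0.504 to 1.0 (not called, limma with Benjamini-Hochberg adjusted p = 0.191). At all 3 sites endosperm lay outside the range of the 6 tissues. In the test over sites, limma with Benjamini-Hochberg adjustment called 843 sites (0.871%), 765 higher (0.79%) and 78 lower (0.0806%), and 535 or 537 without the dark-grown or the light-grown plumule. That count rests on fractions held between 0 and 1, for which the test made more false calls than its threshold allows on simulated data, so positions outside the range of the 6 tissues are given first.

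Of the compared sites, 12660 carried the deposited detection flag in all 7 tissues, 4953 in endosperm and none of the 6 others, and 1396 in all 6 others and not in endosperm. Counted the same way for each other tissue, these were 3941 to 7502 sites flagged in that tissue alone and 404 to 1484 flagged in all but that tissue, so endosperm lay within both ranges.

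The mRNAs that were most enriched in endosperm could be compared only in part, because a site needs reads in all 7 tissues. Storage protein genes had 86 listed sites, of which 85 had depth of at least 20 in endosperm (median depth 41900). Of these 73 were flagged there in 28 genes, and none could be compared. The mean fraction of the flagged sites was 0.347, beside 0.328 for the flagged sites of starch genes. Means over flagged sites are not of one kind with the means over compared sites, which include sites without a flag. Starch genes had 418 listed sites, of which 179 were flagged in endosperm in 22 genes, and 137 could be compared in 15 genes. At these 137 sites the mean fraction was 0.150 in endosperm, against 0.185 over the 6 tissues, with 37 differences up and 100 down, beside 44.2% up and 55.7% down over all compared sites. Endosperm lay above all 6 tissues at 12 of the 137 (8.76%, beside 15.1%) and below all 6 at 17 (12.4%, beside 15.4%).

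Among the 620 genes called higher, 31 had compared sites. Over their 232 sites the mean fraction was 0.161 in endosperm, against 0.215 over the 6 tissues, and the difference was negative at 171 sites and positive at 61. Endosperm lay below all 6 tissues at 32 of these sites (13.8%, beside 15.4% of all sites) and above all 6 at 7 (3.02%, beside 15.1%). Over the 138 sites in coding sequence the means were 0.128 in endosperm and 0.153 elsewhere. Over the 60 sites in 3′ UTRs the mean was 0.247 in endosperm, against 0.363, with 49 negative differences. Of these 60 sites 21 (35.0%) lay below all 6 tissues, beside 14.7% of all compared 3′ UTR sites. Above all 6 lay 1 (1.67%), beside 16.4%. In genes not called, 17412 of 33714 3′ UTR differences were negative. The median depth at the 232 sites was 1300 reads in endosperm, against 97.6 in the other tissues, and its part in the result was not tested. At the 111 sites with depth of at least 50 in all 7 tissues the means were 0.159 in endosperm and 0.208 elsewhere, with 84 negative differences. By gene, 16.1% of the 31 had a positive mean difference, beside 45% of all 11593 genes with both measures. For the genes called lower the means were 0.213 in endosperm and 0.222 elsewhere over 864 sites. Over all 11593 genes, Spearman's rho between the difference in expression and the mean difference in fraction was 0.0605, given as a description across genes, which are not independent replicates.

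**Figure D4:**
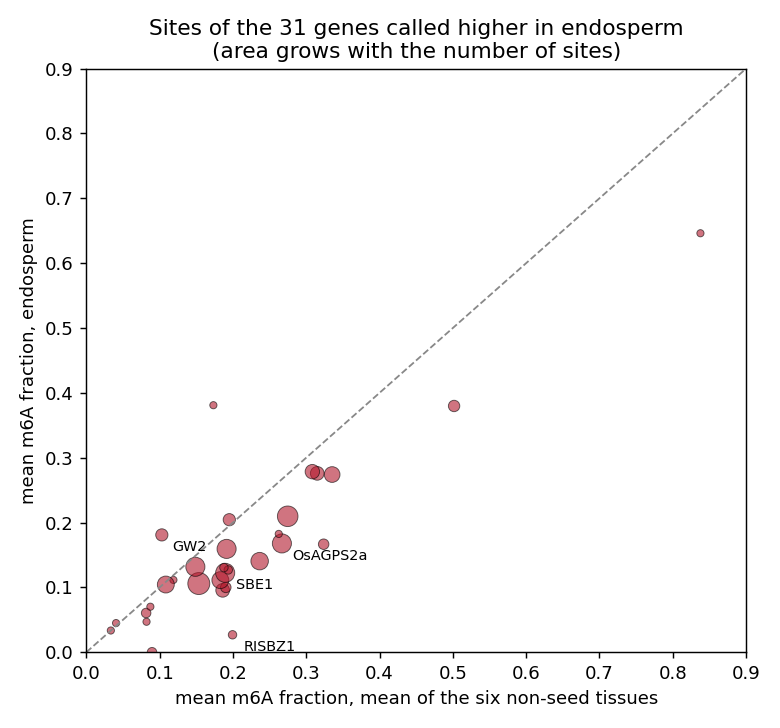
Mean m6A fraction over the compared sites of each of the 31 genes called higher in endosperm, with endosperm on the vertical axis and the mean of the 6 non-seed tissues on the horizontal axis; the area of a circle grows with the number of sites and the dashed line marks equal fractions. Most genes lay below the line, and 16.1% of them lay above it.

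The mean difference was negative for 11 of the 15 starch genes with compared sites and positive for 4. SSIVB, a starch synthase, had 8 of 13 sites up (0.310 in endosperm, against 0.216), with 5 above all 6 tissues and none below, and OsAGPS1 had 4 up and 4 down. All 8 compared sites of AGPL2 had a lower fraction in endosperm than the mean of the 6 tissues, with means of 0.0955 and 0.186, although only 1 of the 8 lay below every tissue. OsAGPS2a had 13 of 17 sites down (0.168 in endosperm, against 0.267), and Pho1 had 10 of 13 (0.111 against 0.183). In SBE1 15 of 17 sites were down (0.122 against 0.189), and the 4 compared sites of its 3′ UTR on chromosome 6 (minus strand of IRGSP-1.0) are shown in transcript order because 3 of them lay below all 6 tissues; capitals mark the methylated adenosine.
SBE1 site 1, position 30898359: ggAct
SBE1 site 2, position 30898310: gaAct
SBE1 site 3, position 30898255: aaAcc
SBE1 site 4, position 30898197: aaAca

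Site 1 of SBE1 was at 0.101 in endosperm, against 0.181 to 0.353 in the 6 tissues. Site 2 was at 0.192 in endosperm, against 0.303 to 0.649, and site 3 was at 0.102, against 0.265 to 0.888. Site 4 was within the range, at 0.144 in endosperm and 0 to 0.348 elsewhere. The first 3 thus separated endosperm from every other tissue, while the last did not. No site of SBE1 was called (limma with Benjamini-Hochberg adjustment; adjusted p of 0.776, 0.759, 0.793 and 0.986 for sites 1 to 4), and depth was 7320 to 31798 reads in endosperm, against 39 to 524 in the other tissues.

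The chaperone gene OsBiP1 had 4 compared 3′ UTR sites on chromosome 2 (minus strand), chosen after its values were seen.
OsBiP1 site 1, position 839007: agAca
OsBiP1 site 2, position 838887: agAct
OsBiP1 site 3, position 838784: gaAct
OsBiP1 site 4, position 838764: aaAca

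All 4 lay below every non-seed tissue. Site 3, the most methylated, was at 0.450 in endosperm, against 0.703 to 1.0, and site 2 was at 0.146, against 0.266 to 0.310. Sites 1 and 4 were at 0.0872 and 0.0727 in endosperm, against 0.112 to 0.251 and 0.0998 to 0.267. None of the 4 was called (limma with Benjamini-Hochberg adjustment; adjusted p of 0.862, 0.602, 0.288 and 0.870). The non-seed depth was higher here than in SBE1, at 63 to 1636 reads, against 1604 to 6327 in endosperm.

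**Figure D5:**
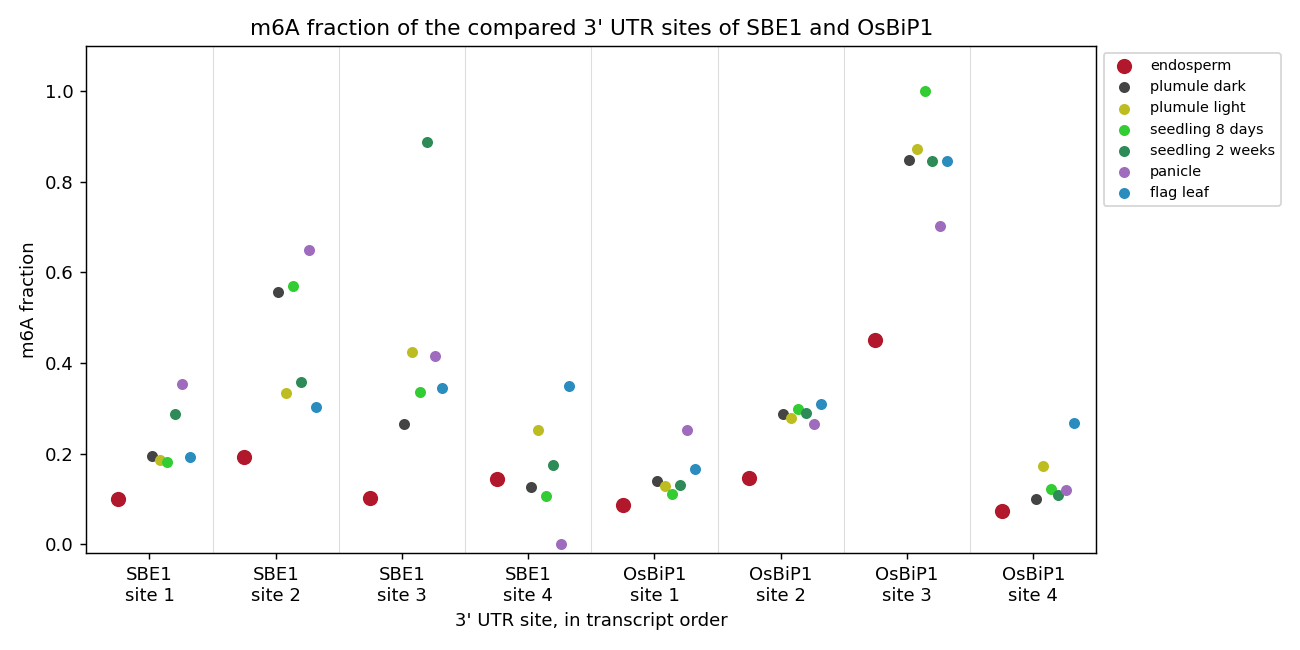
m6A fraction (0 to 1) of the 4 compared 3′ UTR sites of SBE1 and of OsBiP1, with 1 point per tissue and endosperm on the left of each column. Endosperm lay below all 6 non-seed tissues at 7 of the 8 sites, and within their range at SBE1 site 4 (0.144 against 0 to 0.348).

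Some sites of photosynthesis, photoreceptor, starch and sugar genes were higher in endosperm, and none of the genes given here was called in expression. The first RbcS5 site and the PHYA, GBSSII and SUS1 sites were picked as the largest positive difference of their lists. RbcS5, which encodes a Rubisco small subunit, had all 5 of its compared sites above every non-seed tissue, with a mean of 0.698 in endosperm, against 0.212 over the 6 others. Its coding sites tcAgc (chr12:11277446) and aaAtg (chr12:11277679) were at 1.0 and 0.327 in endosperm, against 0.102 to 0.368 and 0.0357 to 0.0626, and both were called (limma with Benjamini-Hochberg adjustment; adjusted p of 0.0480 and 0.00177). The first call was lost without any 1 of 5 tissues. Rubisco small subunit genes of rice are near-identical copies, so the assignment of reads to RbcS5, and with it these values, is uncertain. In PHYA a coding site (aaAcc, chr3:29169581, minus strand) was at 0.948 in endosperm with 108 reads, against 0 to 0.219 (adjusted p = 0.00724, limma with Benjamini-Hochberg adjustment). In GBSSII a coding site (taAgg, chr7:12917944, minus strand) was at 0.720 in endosperm, against 0 to 0.1 (adjusted p = 0.00135, the same method). In SUS1 a coding site (taAcc, chr3:16305211, minus strand) was at 0.875 in endosperm with 64 reads, against 0 to 0.174 (adjusted p = 0.0133, the same method). Over whole genes the signs were mixed, with 7 of 13 compared sites of GBSSII, 4 of 9 of SUS1 and 11 of 26 of PHYA higher in endosperm than the mean of the 6 tissues. Above all 6 tissues lay 4 sites of GBSSII, 2 of SUS1 and 4 of PHYA, and below all 6 lay 3, 4 and 4. The largest negative differences of the sugar and photoreceptor lists were also in SUS1 (0.106 in endosperm, against 0.435 to 0.925) and PHYA (0.207, against 0.338 to 0.825).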

How the data were processed

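The authors deposited TPM values (scaled by gene length and to a fixed library total) for each untreated library and, per site and tissue, a calibrated m6A fraction (share of m6A, from the mutation rate and spike-in probes), a read depth and a detection flag, with both replicates combined. The depth is a whole-number read count per site as deposited. The submitters' processing notes name IRGSP-1.0 (and TAIR10, for another species); the aligner and counter behind the TPM were not named in the sources used here. Reads were recovered from TPM and gene length (100% whole within 0.1 of a read, up to 100 reads).

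Tissue means of log2(TPM + 1) were compared by limma 3.58.1 (R 4.3.3; trend and robust; two-sided; Benjamini-Hochberg adjustment) over 28306 of 38978 genes with at least 1 TPM in at least 2 of the 14 libraries. The replicate spread was tested by limma on libraries and by edgeR 4.0.16 and DESeq2 1.42.0 on recovered reads. Site fractions were compared by limma, and means by exact permutation. Each of the 6 non-seed tissues was also left out in turn, and a call gained that way does not cover the tissue left out. Nothing shows whether replicates came from separate plantings, so p-values over libraries measure only the spread between these samples. The scripts were tested on simulated data, where the site test on bounded fractions made too many false calls.

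Named were the 10 most abundant genes of endosperm, the 10 largest rises and falls by the rules given in the report, the list members and the 8 sites with the largest gap each way. Members and lists were chosen with earlier results of these data known. Names came from the deposited table, which pairs 10843 of 38978 genes with one. In all 16 list members were left out, the m6A enzymes as a whole list and the others because that table does not name them. Tables were joined in Python 3.11.15 with pandas 2.3.3.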

Additional observations from a re-analysis of the deposited data

Results flagged for a closer look

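Among the 6 non-seed tissues, 1 tissue stood apart from the other 5 by Dixon's test in 10 of 75 groups checked. The test's rate of about 1 in 20 holds for like draws. These are different tissues, and most groups are genes chosen with these data known, so the count is a description only. The values are tissue means of log2(TPM + 1). Panicle stood above the others for WX1 (3.98, others 0 to 1.44), ALK (2.89, others 0.0497 to 0.905), MFO1 (7.60, others 0 to 0.386), MADS29 (2.15, others all 0) and TAR1 (5.38, others 0 to 0.040), and below them for OsSSIIb (3.56, others 5.52 to 5.89). Flag leaf stood below the others for xa13 (0.0958, others 4.47 to 5.07) and SUS1 (2.81, others 9.07 to 11.26) and above them for ERO1 (5.19, others 3.85 to 4.28). The seedling at 2 weeks stood below the others for AO (4.6, others 6.61 to 7.05).

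The 2 embryo libraries, which belong to neither group, held storage protein mRNA well above the non-seed libraries, with sums of 21847 and 22349 TPM, against 4.51 to 72.8 TPM. The share of endosperm RNA in these embryo samples was not tested.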

How the results depend on the processing

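The replicate numbers did not pair the samples (correlations of same-numbered deviations over 21 pairs of tissues from -0.202 to 0.236). With the replicate block and libraries as units, 6742 genes differed (1450 higher, 5292 lower), against 889 with tissue means. With the block in the fit of replicate spread 24621 differed, against 24453. In place of that fit, edgeR gave 19760 genes (10571 higher, 9189 lower) and DESeq2 19489 (10030 higher, 9459 lower). The count of 889 was 483 with the plumules as 1 unit, 475 without the dark-grown and 495 without the light-grown plumule, and, chosen after seeing the data, 1399 with median-ratio scaling and no panicle. A pseudocount of 0.1 gave 835 genes, of which 362 were higher. Above all 12 libraries lay 4650 genes with TMM and 4936 with median-ratio scaling, and below them 4114 and 3890. In the folding list 1 gene (GLUP3) was called higher under either scaling. Leaving out 1 library at a time gave 804 to 948 genes. Of 93 named genes, 13 lost and 23 gained a call under some setting, and GBSSII alone turned its sign, to 0.31 with median-ratio scaling and no flag leaf. The site test called 1347 sites at depth 10, 312 at 50, 151 at 100, 174 on the arcsine scale, 177 (50 higher, 127 lower) among sites flagged in all 7 tissues, 237 with no fraction of exactly 0 or 1, and 535 and 537 without the dark-grown or light-grown plumule. At depth 100 the share of sites below by 0.1 was 1.74%, and the differences of the mean fraction turned to 0.00397 over all sites, 0.000532 for GAT and 0.00275 for other motifs. Site 4 of SBE1 turned to 0.0089 on the arcsine scale and 0.0124 without flag leaf. The cause of these changes was not tested.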
